A study of Mus musculus with 12 samples.

Results

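Chromatin accessibility in the liver was compared between mice given pregnenolone 16α-carbonitrile (PCN) and mice given vehicle, in 4 libraries per group, 8 of the 12 ATAC-seq libraries of the series. ATAC-seq uses a transposase that cuts accessible DNA, so a count at a promoter or enhancer measures how open that stretch is. All mice were male wild-type C57BL/6N aged 19 to 20 weeks on chow, gavaged on 4 days and fasted for 12 h. The control group received distilled water and the PCN group 100 mg/kg of PCN. The remaining 4 libraries are from mice given atorvastatin at 10 mg/kg. Groups held 9 to 10 mice per the labels, which do not say whether a library is 1 mouse, so every p-value here reflects variation among libraries, part of which may be technical.

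PCN is a steroid that activates the mouse pregnane X receptor (PXR, gene Nr1i2). PXR is a nuclear receptor that pairs with the retinoid X receptor, binds repeats of a hexamer related to AGGTCA, and in hepatocytes raises transcription of cytochromes P450, conjugating enzymes and export pumps. The constitutive androstane receptor (CAR, gene Nr1i3) shares many of these targets. The question was which promoters and enhancers differed in openness after 4 days of the agonist.

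The promoters on which the results turn are shown here as RefSeq windows of build GRCm38.p6 (the sequence of mm10), from 250 bases before to 50 bases after the gene's start, 5′ to 3′ on the gene's strand. Hamp is shown because it was called in every fit without control 3, Cish because it had the smallest p of the protein-coding genes on the higher side with 8 libraries, and Cyp3a11 because it is the classical target of PXR. Capitals in Cyp3a11 mark 2 copies of AGNTCA in the same direction with 4 bases between them (DR4), and in Hamp and Cish TTCNNNGAA, the palindrome read by STAT factors, the transcription factors of cytokine and growth hormone signalling.
Hamp promoter, chr7:30943980-30944279, minus strand: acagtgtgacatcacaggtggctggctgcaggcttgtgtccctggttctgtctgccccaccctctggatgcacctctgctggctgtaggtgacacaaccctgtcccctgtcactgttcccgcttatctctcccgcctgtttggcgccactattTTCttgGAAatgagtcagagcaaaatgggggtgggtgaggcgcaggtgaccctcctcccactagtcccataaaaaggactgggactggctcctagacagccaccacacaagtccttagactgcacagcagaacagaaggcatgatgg
Cish promoter, chr9:107296409-107296708, plus strand: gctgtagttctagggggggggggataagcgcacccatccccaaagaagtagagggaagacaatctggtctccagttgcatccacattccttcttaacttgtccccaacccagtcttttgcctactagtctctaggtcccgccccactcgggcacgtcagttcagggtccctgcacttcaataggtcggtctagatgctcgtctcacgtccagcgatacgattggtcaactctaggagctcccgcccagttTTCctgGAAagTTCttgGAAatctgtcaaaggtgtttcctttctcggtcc
Cyp3a11 promoter, chr5:145879805-145880104, minus strand: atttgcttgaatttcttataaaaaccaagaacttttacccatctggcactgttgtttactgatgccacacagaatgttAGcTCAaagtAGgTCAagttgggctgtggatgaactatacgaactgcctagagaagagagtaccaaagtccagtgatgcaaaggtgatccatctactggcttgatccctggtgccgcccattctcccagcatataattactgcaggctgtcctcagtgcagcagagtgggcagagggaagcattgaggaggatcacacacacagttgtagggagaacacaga

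Both strands of the 14885 tested promoters with 1 window per gene were searched, and a window could hold more than 1 motif. The DR4 letters were in 19 of them (0.128%), the same copies with 3 bases between (DR3) in 7 (0.0470%), and TGANCT followed after 6 bases by AGNTCA (ER6) in 6 (0.0403%). Among those of the 26 drug metabolism and related genes described below that have 1 window, Cyp3a11 held DR4 and none held DR3 or ER6. The STAT letters, searched after values had been seen, were in 1226 windows (8.24%), of which Gsta1 and Ebp are among the 26 genes. The median log2 fold change, PCN minus control, was -0.12 over windows with DR4 and -0.09 over those with the STAT letters. Over all 14885 it was -0.02. Windows with DR4 or the STAT letters were less open, with median signals of 6.68 and 8.51 CPM (a unit explained below) against 14.1 over all. With loess offsets, a scaling by openness explained below, the medians were 0.04 for DR4, -0.03 for STAT and -0.03 over all. Without control 3 those of DR4 and STAT were -0.31 and -0.11. A match describes letters in a window, and no match says nothing of a factor's binding.

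Control 3 stood apart from the other 7 libraries. Its median rank correlation with them was 0.802 over promoters and 0.211 over enhancer loci, where the others had 0.943 to 0.975 and 0.491 to 0.599. It held no count at 11.5% of promoters and 77.0% of all loci, and control 4 at 7.07% and 60.2%. These are also the shallowest libraries, with 2368263 and 1679054 promoter counts against 4872850.5 to 10493197 in the other 6. The share of promoter counts out of promoter and enhancer counts was 61.2 ± 3.4% (SD, n = 4) in control and 57.9 ± 3.1% in PCN (exact permutation test, two-sided p = 0.229, adjusted over 2 measures 0.343, smallest possible 0.0286). Results are therefore given for all 8 libraries and without control 3.

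With all 8 libraries no promoter passed (0 of 41257, percent called 0, edgeR's quasi-likelihood test, Benjamini-Hochberg adjusted p under 0.05, lowest 0.772), and neither limma-voom without sample weights nor DESeq2 called any. Limma-voom with sample weights called 125 (0.303%), 93 higher and 32 lower. The promoters at an unadjusted p under 0.05 numbered 2299 by edgeR (5.57%), 2938 by DESeq2 and 3581 by limma-voom. Without control 3, 7 of 41696 promoters passed (0.0168%), all higher with PCN, from the 6 genes Hamp, Mir6978, Tnfsf14, Gm29684, AU019990 and Tgm1, and 2210 (5.3%) were at an unadjusted p under 0.05. With the replicate number as a block in the same 7 libraries, 32 passed (0.0767%), all higher, and these took in Cish, Cfb and Onecut2 (edgeR adjusted p = 0.0300, 0.00342 and 0.0246), which did not pass without the block. In that fit PCN 3 had no control of its number, so it added nothing to the difference between groups. The difference rested on the same-numbered pairs among the other libraries, which left little replicate spread to judge it by. Over 15 fits without control 3, most of which also changed the scaling, the tool, the filter or another library, Hamp was past the threshold in 15, Mir6978 in 11, Tnfsf14 and Gm29684 in 8, and AU019990 and Tgm1 in at most 6 and 5. Promoters lower with PCN passed in some of the 15 too, among them Myl7 in 5, Mir704 in 4 and Gm11827 in 2. Most of these fits were added after the data were seen.

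Hamp encodes hepcidin, the liver hormone that restrains iron export from cells. Its promoter signal, in CPM (counts relative to the library total, scaled by TMM), was 19.4, 24.4, 48.5 and 24.5 in control libraries 1 to 4 and 46.8, 69.8, 52.4 and 63.2 in the PCN libraries. Control 3 lay inside the PCN range and the other 3 controls below it. The log2 fold change was 1.02 ± 0.26 (SE, n = 4 per group) with 8 libraries (edgeR adjusted p = 0.772) and 1.37 ± 0.21 without control 3 (edgeR adjusted p = 1.80e-06). The promoter of Hamp2, a neighbouring near-copy of Hamp between which reads could be divided, chosen here after values were seen, was at 8.99, 7.45, 3.59 and 11.9 CPM in control and 6.44, 9.13, 8.16 and 6.60 in PCN, with overlapping groups (-0.06 ± 0.43).

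Mir6978 is a microRNA gene that lies inside the complement gene C3 (Mir6978 at chr17:57217172-57217228, C3 at chr17:57203967-57228136, mm10). Its mature products are printed with the seed, bases 2 to 8, in capitals, because they are what the gene would make; their targets and levels were not measured.
mmu-miR-6978-5p: aAGGGGUGagagagaagcuggug
mmu-miR-6978-3p: aCGGCUUCacucucacccugcag
The Mir6978 promoter held 22.8, 19.6, 25.9 and 18.8 CPM in control and 57.6, 54.5, 39.9 and 29.9 in PCN, so every PCN library was above every control, control 3 included. Groups were separate in this direction at 849 of 41257 promoters (2.06%), and in the other at 644 (1.56%). Without control 3 these shares were 3.19% and 3.34%. The fold change on the log2 scale was 1.06 ± 0.22 with 8 libraries (edgeR adjusted p = 0.772) and 1.14 ± 0.19 without control 3 (edgeR adjusted p = 3.32e-05). C3, the central component of complement, was chosen here after values were seen and had its promoter at 32.8, 37.8, 42.9 and 54.0 CPM in control and 62.5, 87.7, 68.3 and 55.3 in PCN. These groups were separate too, and C3 did not pass (0.73 ± 0.22, and 0.76 ± 0.23 without control 3, edgeR adjusted p = 0.428).

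Tnfsf14, which encodes the TNF family ligand LIGHT, lies close to C3 at chr17:57189474-57194181. Its control libraries held 24.6, 16.6, 56.2 and 10.7 CPM and its PCN libraries 57.6, 45.0, 47.8 and 23.1. The groups overlapped even without control 3, since PCN 4 was below control 1. The log2 fold change went from 0.70 ± 0.42 with 8 libraries to 1.22 ± 0.19 without control 3 (edgeR adjusted p = 3.96e-05). Tgm1, the gene of a transglutaminase that cross-links proteins, was at 19.7, 21.4, 28.3 and 25.1 CPM in control and 38.4, 47.6, 36.1 and 31.9 in PCN, separate in all 8 libraries (0.73 ± 0.20). It rose without control 3 by 0.84 ± 0.18 on the log2 scale (edgeR adjusted p = 0.0208). The long non-coding RNA genes Gm29684 and AU019990 rose by 1.06 ± 0.20 and 0.91 ± 0.19 without control 3 (edgeR adjusted p = 0.000896 and 0.0088), and control 3 exceeded every PCN library at both (43.1 and 33.1 CPM).

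The p-values without control 3 rest almost wholly on a spread shared between promoters. In that fit the prior carried 1315 degrees of freedom against 5 residual ones, so a promoter's own replicate spread hardly entered its test. With 8 libraries these were 10.9 and 6. In the same 7 libraries DESeq2 and limma-voom called 2 and 8 promoters, and both lists held Hamp and Necab2.

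**Figure D1:**
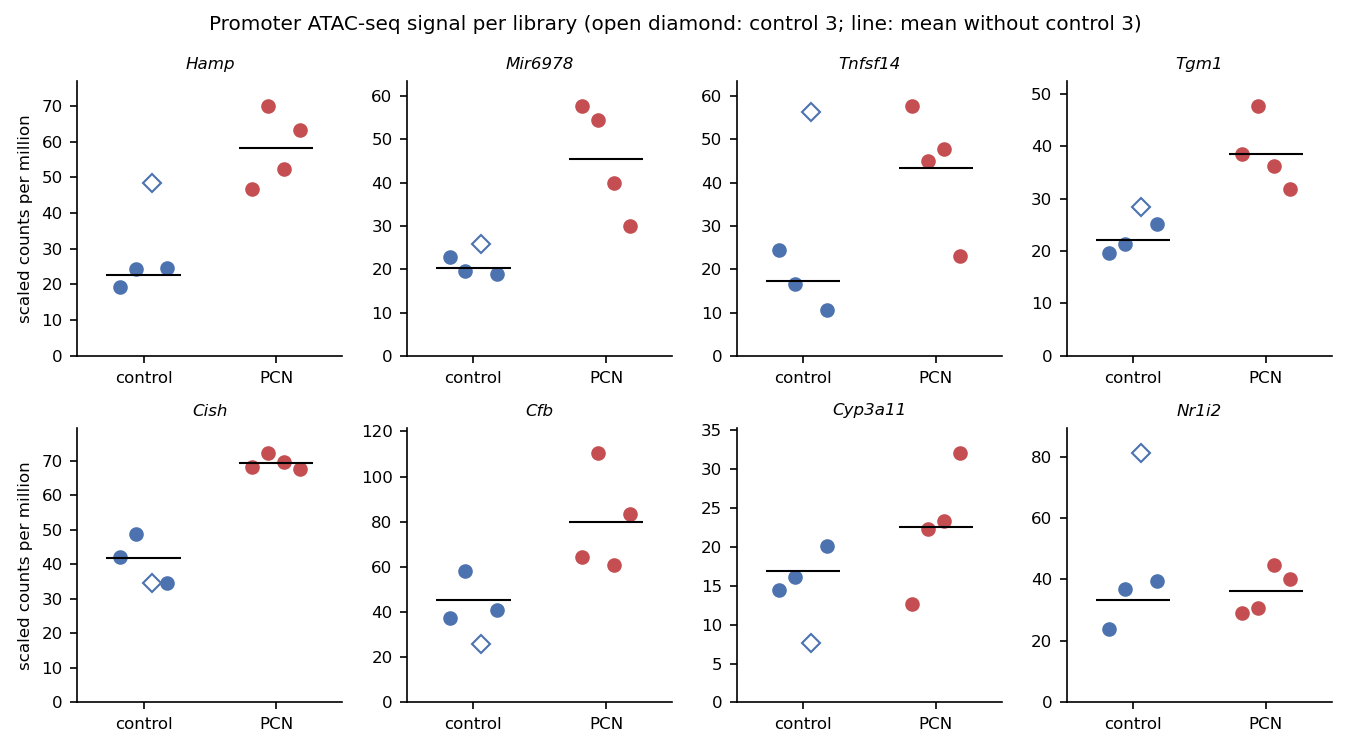
Promoter signal in TMM-scaled CPM (vertical axes, from 0) in the 4 control and 4 PCN libraries for 8 genes. Points are libraries, the open diamond is control 3, and lines are group means without control 3. Control 3 sits within or above the PCN libraries for Hamp, Tnfsf14 and Nr1i2, and below or within the other controls for Cish, Cfb and Cyp3a11.

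None of the promoters of smallest p with 8 libraries passed. Cish encodes an inhibitor of cytokine receptor signalling. Its promoter was at 42.1, 48.8, 34.7 and 34.5 CPM in control and 68.1, 72.2, 69.6 and 67.5 in PCN, a narrow band with all 4 above every control (0.78 ± 0.19, and 0.71 ± 0.23 without control 3, edgeR adjusted p = 0.552). Cfb, complement factor B, went from 37.3, 58.2, 25.9 and 40.8 CPM in control to 64.3, 110, 60.8 and 83.3 in PCN (0.96 ± 0.26, and 0.80 ± 0.25 without control 3). Sh2b1, an adaptor of insulin and leptin receptor signalling, was at 19.1 to 25.4 CPM in control and 32.6 to 39.1 in PCN (0.66 ± 0.18).

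The other promoters of smallest p on the higher side were Ankrd40 (0.77 ± 0.19), C77080 (0.82 ± 0.22), Dnal4 (0.68 ± 0.18) and Onecut2, a hepatic transcription factor gene (0.68 ± 0.18). Their groups were separate with 8 libraries. Necab2, which encodes a calcium-binding protein, was at 33.4, 35.2, 63.4 and 42.7 CPM in control and 59.7, 86.6, 84.8 and 67.6 in PCN. It missed the threshold without control 3 (1.03 ± 0.24, edgeR adjusted p = 0.0524) and passed it in 6 of the 15 fits without that library.

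On the lower side none of the 10 genes of smallest p passed. Gm10007, a long non-coding RNA gene, held 11.9, 16.3, 20.3 and 20.1 CPM in control and 6.83, 5.88, 5.59 and 7.12 in PCN (-1.42 ± 0.32, and -1.30 ± 0.32 without control 3, edgeR adjusted p = 0.119). Hif3a, a hypoxia-inducible factor that can restrain its relatives, was at 17.5 to 25.9 CPM in control and 8.87 to 15.2 in PCN (-0.93 ± 0.25). Mag, a myelin glycoprotein gene, was at 8.54 to 15.7 CPM in control and 3.69 to 5.35 in PCN (-1.50 ± 0.41).
Groups did not overlap at Gm10007, Hif3a, Mag, 4933431G14Rik, 8030423F21Rik, Thbs2, Mir6965 and Tnnt1. Over all promoters this share was 1.56%, and picking genes by small p favours such separation. Control 3 was the highest library at 9 of the 10 genes, the exception being Mag. The log2 fold changes of Garnl3, Thbs2, Tnnt1, 8030423F21Rik and 4930539C22Rik went from -2.50, -1.80, -1.56, -1.66 and -2.17 to -1.29, -0.97, -0.95, -1.15 and -1.48 without it. The groups of Garnl3 and 4930539C22Rik overlapped with and without control 3. The non-coding genes 4933431G14Rik (-1.08 ± 0.28) and Mir6965 (9.08 to 11.8 CPM in PCN and 14.9 to 31.1 in control) completed the 10.

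Among the receptors, Nr1i2 itself showed a sign that depended on control 3. Its most open promoter held 23.7, 37.0, 81.2 and 39.5 CPM in control and 29.2, 30.9, 44.6 and 40.2 in PCN. The log2 fold change was -0.30 ± 0.30 with 8 libraries and 0.17 ± 0.18 without control 3. Nr1i3 was at 0.16 ± 0.20, with 29.5 to 51.5 CPM in control and 42.4 to 53.4 in PCN, and overlapping groups. Of 10 sensors and partners, 9 lay above 0 with a median of 0.21, and 0 were called. Over all genes by their most open promoter, 11484 of 24160 lay above 0 with a median of -0.03.

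Cytochrome P450 promoters are the textbook targets of PXR and CAR, and were weakly open here. Cyp3a11, the leading target of PXR, held 14.4, 16.1, 7.58 and 20.1 CPM in control and 12.7, 22.3, 23.3 and 32.1 in PCN. PCN 1 lay among the controls, and the groups overlapped with and without control 3. Its log2 fold change was 0.64 ± 0.30 with 8 libraries (edgeR adjusted p = 0.772) and 0.47 ± 0.20 without control 3 (edgeR adjusted p = 0.865). Cyp3a13 was at 0.69 ± 0.36 and Cyp3a25 at 0.17 ± 0.35, the last at 0.01 ± 0.18 without control 3. Cyp2b10, the classical target of CAR, was at 8.74, 11.0, 7.18 and 12.6 CPM in control and 8.83, 8.61, 5.70 and 6.81 in PCN (-0.38 ± 0.38). Cyp2c29 and Cyp2c55 were at 0.00 ± 0.33 and 0.17 ± 0.49, with overlapping groups. Of 20 P450 promoters tested, 13 lay above 0, with a median of 0.17, and 0.06 for the same 20 without control 3. The Cyp3a and Cyp2c families hold near-identical copies, between which counts may be divided.

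Among the 13 other phase I genes tested, 2 esterases had separate groups with PCN higher, against 2.06% of all promoters. Ces2c, a carboxylesterase gene, was at 8.65, 9.94, 11.6 and 11.9 CPM in control and 14.9, 27.2, 14.4 and 12.3 in PCN, separate in all 8 libraries (0.73 ± 0.31, and 0.81 ± 0.25 without control 3, edgeR adjusted p = 0.458). Its relative Ces1e was separate as well, at 12.7 to 18.8 CPM in control and 19.4 to 27.7 in PCN (0.54 ± 0.23). Ces2a overlapped (0.37 ± 0.22). Por and Alas1, which supply P450s with electrons and haem, were at 0.26 ± 0.25 and 0.30 ± 0.20.

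Conjugation genes showed no separate groups. Sult2a8, a sulfotransferase gene, was at 13.6 to 27.6 CPM in control and 25.6 to 32.2 in PCN (0.63 ± 0.22). Ugt1a1, the bilirubin glucuronosyltransferase, was at 0.42 ± 0.24, and the glutathione transferases Gstm1 and Gsta1 at 0.34 ± 0.19 and 0.35 ± 0.46. Sult2a1 did not reach the count filter with 8 libraries, with 0 in controls 3 and 4. The median of 16 promoters was 0.27, and 0.03 for the same 16 without control 3.

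Among transporters, Abcc2, a canalicular export pump and known PXR target, held 16.0, 20.6, 9.57 and 22.6 CPM in control and 23.2, 33.5, 21.7 and 28.8 in PCN. PCN 3 lay below control 4, and the log2 fold change was 0.64 ± 0.25, or 0.48 ± 0.18 without control 3 (edgeR adjusted p = 0.761). Abcc3 (-0.03 ± 0.19), Slco1a4 (0.05 ± 0.25) and Abcb1a (-0.58 ± 0.68) stayed within their error, and 4 of 10 transporters lay above 0.

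**Figure D2:**
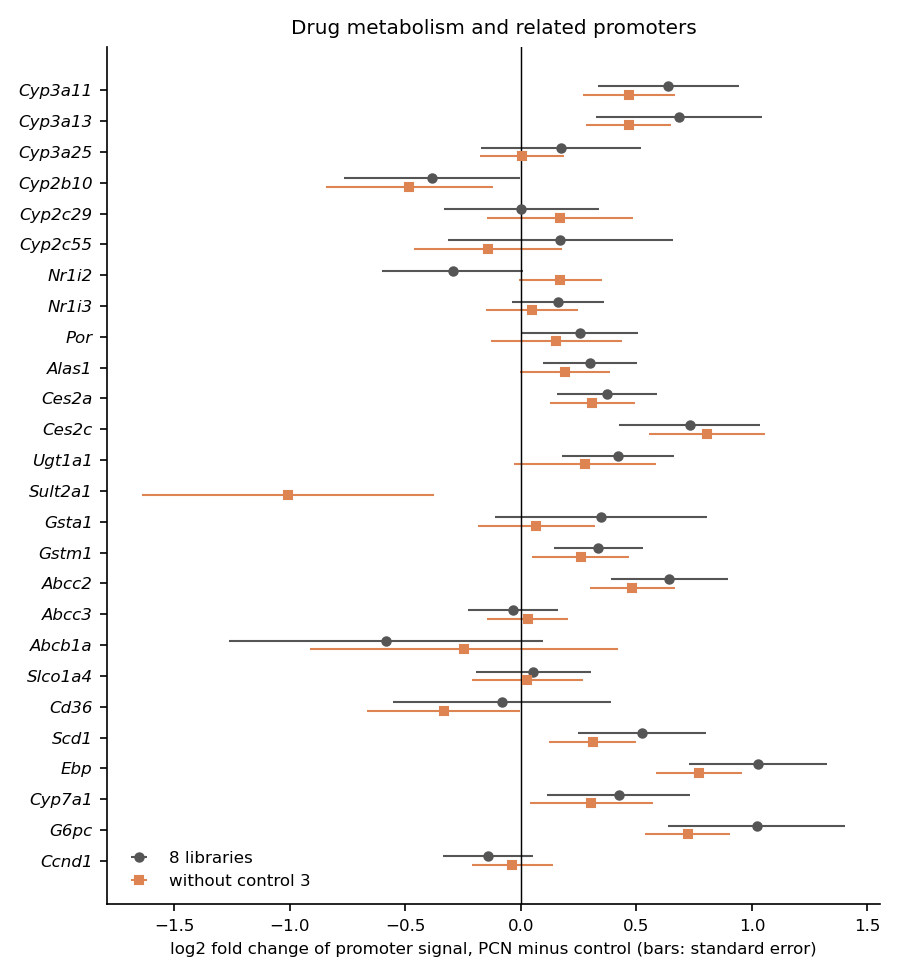
Log2 fold change of the most open promoter, PCN minus control (horizontal axis), for 26 genes of drug metabolism and related pathways. Circles are the fits with 8 libraries, squares those without control 3, and bars the standard error. Nr1i2 changes sign between the fits, and Cyp3a11 stays at 0.64 and 0.47. Ebp and G6pc lie farthest to the right with 8 libraries, and Ces2c does without control 3.

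No sterol gene was called by edgeR with 8 libraries or without control 3 alone. Ebp, a sterol isomerase of cholesterol synthesis, was at 15.6, 19.1, 5.19 and 11.9 CPM in control and 24.5, 19.9, 32.5 and 33.4 in PCN. All 4 PCN libraries were above every control, and the log2 fold change was 1.03 ± 0.30 with 8 libraries and 0.77 ± 0.19 without control 3 (edgeR adjusted p = 0.0856), and it passed once PCN 2 was left out too. Srebf2, the master regulator of sterol synthesis, and Mvd, an enzyme of it, were at 0.65 ± 0.23 and 0.43 ± 0.18. Of 25 cholesterol promoters 22 lay above 0 with 8 libraries and 25 without control 3, with medians of 0.22 and 0.18, but 15 with loess offsets, a scaling by openness explained below.

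All 14 promoters of bile acid synthesis and sterol disposal lay above 0 with 8 libraries and 13 with loess offsets (medians 0.39 and 0.36). Nr0b2, the bile acid-induced repressor SHP, was at 41.8, 60.7, 45.9 and 62.8 CPM in control and 62.0, 84.2, 82.1 and 86.2 in PCN (0.58 ± 0.22), the lowest PCN library just under the highest control. Slc27a5, which activates bile acids, was at 15.2 to 30.4 CPM in control and 31.6 to 36.9 in PCN, without overlap (0.56 ± 0.22). The sterol exporter gene Abcg8 was at 0.63 ± 0.25 and Cyp7a1, the rate-limiting enzyme of bile acid synthesis, at 0.42 ± 0.31.

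G6pc, the glucose-6-phosphatase that releases glucose from liver, held 21.6, 27.2, 3.99 and 28.9 CPM in control and 33.8, 53.5, 35.2 and 45.4 in PCN. The groups were separate, control 3 was far below the rest, and the log2 fold change was 1.02 ± 0.38 with 8 libraries and 0.72 ± 0.18 without it (edgeR adjusted p = 0.167). Fbp1, fructose-1,6-bisphosphatase, was at 22.0 to 49.6 CPM in control and 44.7 to 66.8 in PCN (0.73 ± 0.24). All 10 gluconeogenesis promoters lay above 0 with 8 libraries and 7 with loess offsets. In fatty acid oxidation and ketogenesis, 17 of 21 lay above 0 (median 0.35). There Bdh1, the ketone body dehydrogenase, was separate at 16.2 to 21.3 CPM against 22.6 to 27.6 (0.50 ± 0.20). Acot3, an acyl-CoA thioesterase, was at 1.09 ± 0.43, and at 0.81 ± 0.19 without control 3 (edgeR adjusted p = 0.0524).

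Lipid synthesis and storage genes lay above 0 at 17 of 23 promoters. Scd1, the stearoyl-CoA desaturase, was at 0.53 ± 0.28, Dgat2, which makes triglycerides, at 0.41 ± 0.20, and Cd36, a fatty acid transporter linked to PXR, at -0.08 ± 0.47. In the cell cycle list, Cdkn1a, the inhibitor p21, was at 42.2, 44.2, 37.1 and 47.1 CPM in control and 32.4, 32.8, 32.6 and 29.7 in PCN, lower in every PCN library (-0.42 ± 0.17, and -0.47 ± 0.18 without control 3, edgeR adjusted p = 0.770). Myc was at 0.59 ± 0.22 and Ccnd1 at -0.14 ± 0.20, both with overlapping groups. Clock genes lay above 0 at 13 of 15 promoters with 8 libraries and at 5 with loess offsets, led by Nfil3 (0.59 ± 0.24) and Dbp (0.64 ± 0.27).

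Over the 193 tested genes of the pathway lists, groups were separate with PCN higher at 9 (4.66%, against 2.06% of all promoters) and lower at 2 (1.04%, against 1.56%). Over the 120 tested marker genes the counts were 3 and 2 (2.50% and 1.67%). Without control 3 the pathway counts were 11 and 4 (5.7% and 2.07%) and the marker counts 4 and 6 (3.33% and 5%), against 3.19% and 3.34% of all promoters. The shares of all promoters count every row, repeats included. They were not matched to the lists for openness, with which fold changes moved, as described below. Each list gene counted once, at its most open promoter. None of these genes was called by edgeR with all 8 libraries or without control 3 alone. Fits with other settings called a few of them. The replicate block without control 3 called Fbp1, among 32 of 41696 promoters (0.0767%). Leaving out control 3 and PCN 2 called Ebp, among 6 of 41747. Limma-voom with sample weights called Fbp1, G6pc and Sult2a8, among 125 of 41257 (0.303%). Leaving out controls 3 and 4 called Acot3, Acot4, Fbp1 and G6pc, among 66 of 41944.

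Promoters in the marker lists of hepatocytes had medians above 0 and those of other liver cells below 0. The 20 hepatocyte core promoters had a median of 0.38, with 18 above 0, and sums of 603 to 1133 CPM in control and 856 to 1149 in PCN. Trf, transferrin, and Ahsg, fetuin-A, were at 0.71 ± 0.27 and 0.71 ± 0.30. The medians were -0.34 for stellate cell and fibroblast genes (2 of 14 above 0), -0.28 for Kupffer cell genes (3 of 12), -0.19 for endothelial genes (3 of 12) and -0.24 for cholangiocyte genes (2 of 10). For blood cells they were -0.20 in lymphocyte genes (3 of 12), -0.33 in neutrophil genes (2 of 10) and -0.77 in erythroid genes (2 of 8). Their summed signals overlapped between groups, at 82.5 to 167 CPM in control and 71.5 to 120 in PCN for stellate genes and 79.1 to 158 and 85.6 to 114 for Kupffer genes, and no list had a gene at 0 in all libraries. In control 3 at least 1 gene was at 0 in every list but the pericentral one, the hepatocyte genes Fgb and Otc as well as Vsig4, Tek, Dcn, Krt19, Cftr, Cd3e, Ms4a1, Ly6g, Cxcr2 and Hbb-bt. Enhancer loci within 50 kb of the markers did not wholly follow this split: against 0.14 for all loci, the medians were 0.25 for hepatocyte core genes, 0.22 for Kupffer, 0.31 for neutrophil, 0.11 for cholangiocyte and 0.02 for endothelial genes, and -0.61 for stellate, -0.14 for lymphocyte and -0.13 for erythroid genes. Several rest on few loci, 7 each for Kupffer and stellate, 9 for erythroid, 14 for cholangiocyte and 16 for neutrophil genes. Without control 3 the medians were 0.05 for hepatocyte core, -0.19 for Kupffer, 0.12 for neutrophil, 0.16 for cholangiocyte and -0.16 for endothelial genes. Those of stellate, lymphocyte and erythroid genes were then -0.51, -0.18 and -0.10. The part of these cells in the results was not tested. In bulk liver, fewer cells of a type and less open chromatin per cell cannot be told apart.

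These list medians moved with how open the promoters were. Split into 5 equal groups by mean signal, promoters lay at medians of -0.34 and -0.39 on the log2 scale in the 2 least open groups (up to 10.9 CPM), 0.01 in the middle, and 0.14 and 0.21 in the 2 most open ones (over 24.5 CPM). The share above 0 went from 23.1% to 87.5%. Without control 3 the ends were at -0.39 and 0.20. The gradient differed within each group as well: among the most open promoters, the median deviation from the 8-library mean on the log2 scale was -0.34 in control 1 and 0.19 in control 4, and -0.16 in PCN 1 and 0.30 in PCN 3. Loess offsets, which centre each library at every level of openness, brought the 5 medians to between -0.06 and 0.00.

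Under loess offsets the hepatocyte core median was 0.23, phase I genes other than P450s 0.23, P450s 0.23 and fatty acid oxidation 0.19. The sensors went to 0.00 and the clock list to -0.05. The Kupffer, lymphocyte and neutrophil medians turned positive (0.04, 0.21 and 0.09), while stellate and erythroid genes stayed below 0 at -0.15 and -0.48. Hepatocyte core promoters had a median signal of 37.5 CPM and stellate promoters 8.92 CPM, so the lists sit at different levels of openness. What openness contributes to each list was not tested beyond this scaling.

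**Figure D3:**
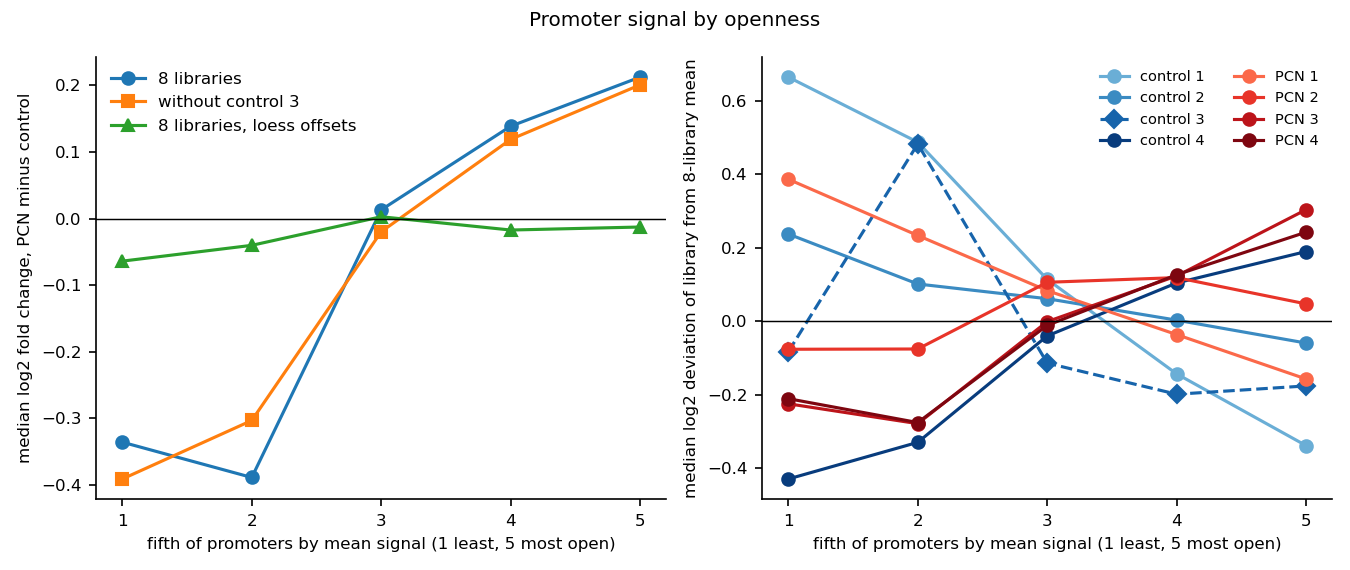
Left, median log2 fold change of promoters, PCN minus control (vertical axis), in 5 equal groups by mean signal (horizontal axis) for 8 libraries, without control 3, and with loess offsets. Right, each library's median deviation from the 8-library mean on the log2 scale in the same groups. The medians run from -0.34 to 0.21 with 8 libraries and stay within 0.06 of 0 with loess offsets, and the libraries of each group spread widely around 0.

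**Figure D4:**
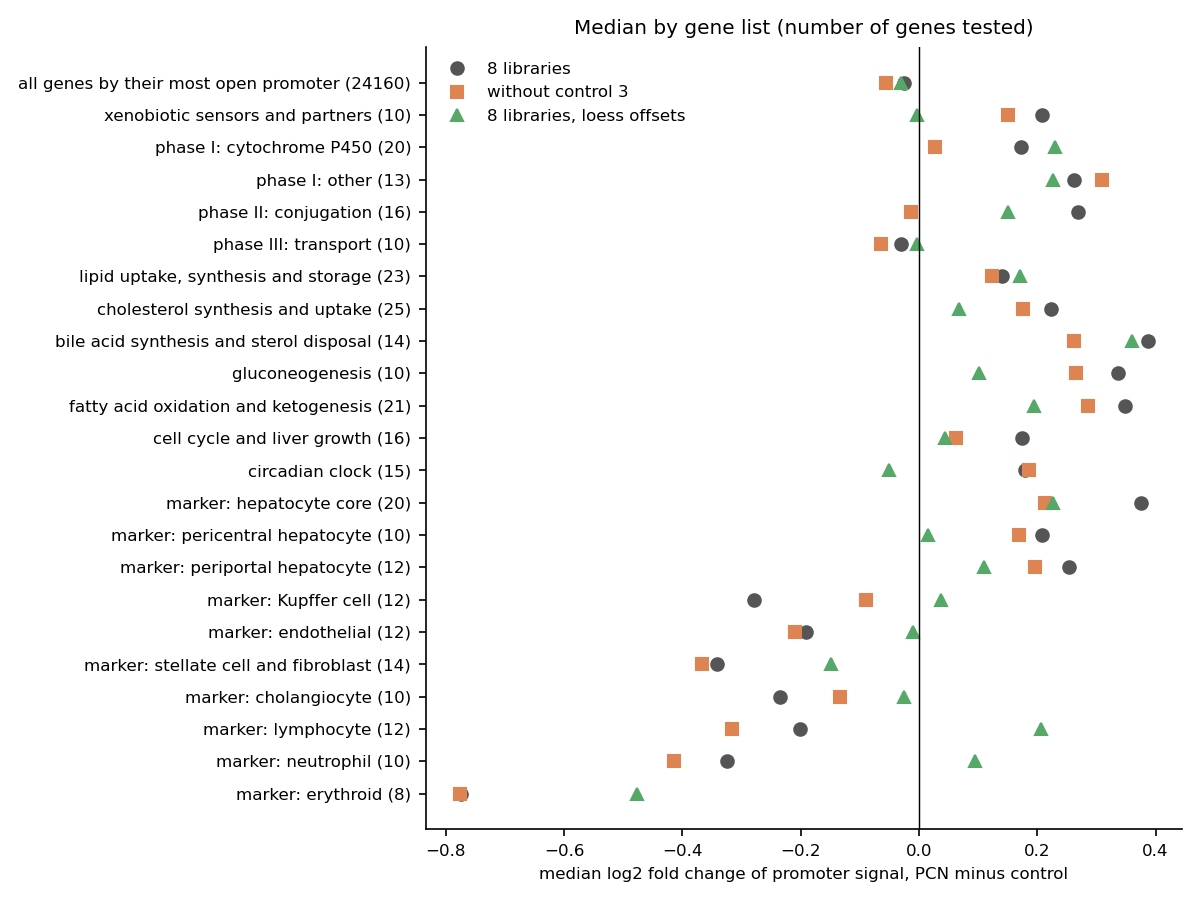
Median log2 fold change of promoters (horizontal axis) by gene list, with the number of genes tested with 8 libraries. Circles are 8 libraries, squares without control 3, and triangles 8 libraries with loess offsets. Bile acid and hepatocyte core lists stay right of 0 under all 3, and Kupffer, lymphocyte and neutrophil markers cross 0 with loess offsets.

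Sequence composition and gene type ran along the same gradient. Among the 14885 promoters with 1 window, the 4031 with an observed-to-expected CpG ratio under 0.25 lay at a median of -0.33 on the log2 scale with a median signal of 4.49 CPM, and the 5156 of at least 0.75 had 0.12 and 31.9 CPM. Control 3 held no count at 18.2% of the former and 1.65% of the latter. MicroRNA and long non-coding RNA promoters had medians of -0.23 and -0.18, against 0.02 for protein-coding ones. With loess offsets the CpG-poor group was at -0.10 and the CpG-rich group at -0.02.

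Enhancer regions were merged where they overlapped, giving 197638 loci, each represented by its region of highest mean signal. With 8 libraries 0 of 22992 tested loci passed (percent called 0, edgeR quasi-likelihood test, Benjamini-Hochberg adjusted p under 0.05), and 499 (2.17%) were at an unadjusted p under 0.05. The same libraries gave 0 calls by DESeq2, with 890 loci at an unadjusted p under 0.05, and 0 by limma-voom, with 1141. Limma-voom with sample weights called 2 loci, both lower. Without control 3 none of 28855 passed (lowest edgeR adjusted p = 0.105), with 2124 (7.36%) at an unadjusted p under 0.05. The median standard error was 0.67 with 8 libraries and 0.47 without control 3, larger than the 0.29 of promoters.

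The loci's fold changes moved with region width. The representative regions of nearly all loci fall into 12 widths. Each of these widths has its highest mean signal in a different one of the 12 libraries. Without control 3, loci of the 4 widths highest in a control library were centred on -0.13 (log2, median), with 326 higher and 753 lower at an unadjusted p under 0.05. Those of the 4 widths highest in a PCN library had 0.25, with 333 higher and 30 lower. Loci of the 4 widths highest in an atorvastatin library, outside this comparison, had 0.07, with 502 higher and 178 lower. The part of region width in the results for single loci was not tested, so the width class of each is given.

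Of the loci higher with PCN, that 882 bases from Vegfa, the gene of an endothelial growth factor (chr17:46015969-46016203, mm10), held 47.9, 61.2, 9.90 and 50.4 CPM in control and 112, 101, 137 and 170 in PCN. Every PCN library was above every control (1.60 ± 0.44, and 1.34 ± 0.30 without control 3, edgeR adjusted p = 0.344), as at 873 loci (3.8%) against 254 (1.1%) with PCN lower. Without control 3 these shares were 4.47% and 4.65%. Its width is highest in atorvastatin 3. A locus inside Anpep, an aminopeptidase gene (chr7:79843041-79843167), was at 8.90 to 36.1 CPM in control and 43.1 to 128 in PCN (1.93 ± 0.52), with the width of PCN 4. Loci inside Agpat2, an enzyme of triglyceride synthesis (0.84 ± 0.25), and near Hnrnpll, Rreb1 and Slc45a1 (0.91 to 1.13) completed the 6 of smallest p. The first 3 of these have the width of atorvastatin 3 and that near Slc45a1 the width of control 3.

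Of the loci lower with PCN, that 644 bases from the proteasome gene Psma3 (chr12:70968463-70968785) held 54.6, 63.2, 75.9 and 110 CPM in control and 17.8, 22.2, 20.2 and 7.97 in PCN (-2.06 ± 0.51, and -1.93 ± 0.42 without control 3, edgeR adjusted p = 0.285). Groups were far apart, and its width is highest in control 4. A locus inside Chd9, a chromatin remodeller gene (chr8:90892564-90892829), was at 78.1 to 171 CPM in control and 36.5 to 61.7 in PCN (-1.28 ± 0.36), with the width of atorvastatin 3. The loci in Zhx3 and Pheta1 and near Coq2 and Mbnl1 have the width of control 3, and their log2 fold changes of -2.79, -2.34, -3.07 and -1.85 were -1.96, -1.36, -1.76 and -1.62 without it. The PCN libraries held 2.28 to 14.7 CPM at Zhx3 and 0 to 17.1 near Coq2. With 8 libraries these loci, and that near Psma3, needed control libraries to pass the count filter. A lower PCN value was thus partly built into their being tested.

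Loci of smallest p without control 3 were chosen here after values were seen. A locus inside Arhgef10l (chr4:140532268-140532543) held 11.8, 16.6, 111 and 23.7 CPM in control and 69.8, 50.9, 73.3 and 121 in PCN, and its log2 fold change went from 0.97 ± 0.64 to 2.36 ± 0.43 without control 3 (edgeR adjusted p = 0.105), though its width is that of control 3. A locus inside Mug1, a plasma protease inhibitor gene of rodents (chr6:121885216-121885403), was at 77.2, 75.7, 4.95 and 92.0 CPM in control and 18.5, 14.8, 26.9 and 12.5 in PCN (-1.996 ± 0.38 without control 3, edgeR adjusted p = 0.118). Its width is that of atorvastatin 3. Loci inside Fmo5 and Zbtb16 were at 0 in control 3 and lower with PCN than in the other controls (-2.55 ± 0.52 and -3.12 ± 0.65), both with the width of control 4. Neither passed the count filter with 8 libraries. They entered the fit without control 3 through the 3 controls in which they are high, so a lower PCN value was built into their being tested.

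**Figure D5:**
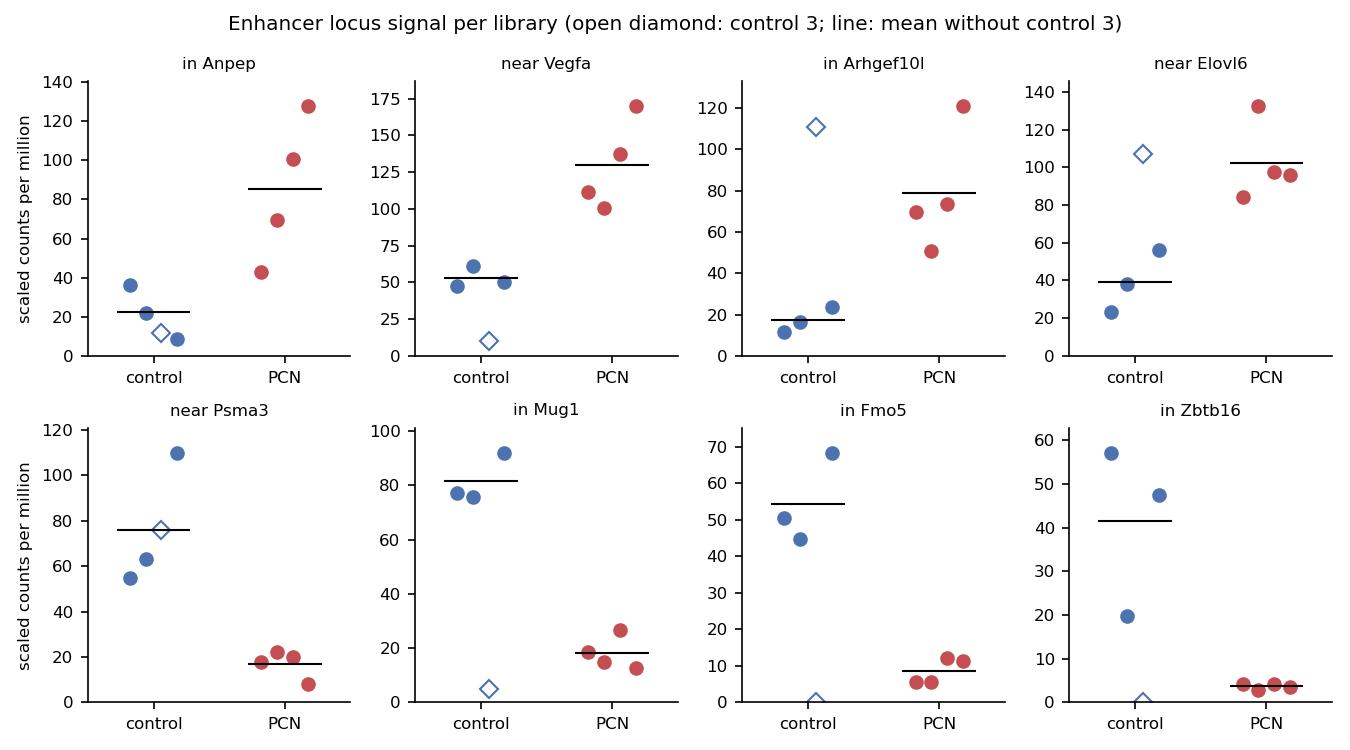
Enhancer locus signal in TMM-scaled CPM (vertical axes, from 0) in the 4 control and 4 PCN libraries, for 8 loci named by the gene they lie in or nearest to. Points are libraries, the open diamond is control 3, and lines are means without control 3. Control 3 lies inside the PCN range at Arhgef10l and Elovl6 and is near or at 0 at Mug1, Fmo5 and Zbtb16.

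Around Cyp3a11, 2 of the 3 loci tested upstream of the gene were higher in every PCN library than in any control, while a locus inside it was not. Over all loci the share is 3.8%. These 2 loci were at 0 in control 3, so with 8 libraries they needed PCN libraries to pass the count filter. A higher PCN value was thus partly built into their being tested in that fit. At 32117 bases from the gene's start (chr5:145911764-145912177) the signal was 53.7, 65.3, 0 and 29.7 CPM in control and 81.4, 91.6, 107 and 116 in PCN (1.33 ± 0.61, unadjusted p = 0.0461 and adjusted p = 1 by edgeR over n = 4 per group). At 24887 bases (chr5:145904636-145904807) it was 22.7, 13.5, 0 and 11.9 CPM in control and 25.3, 37.0, 46.4 and 38.7 in PCN (1.51 ± 0.74). Both stayed separate without control 3, at 0.95 ± 0.31 and 1.16 ± 0.49 (4.47% of all loci were), whereas the other upstream loci then tested overlapped, at -0.22, 0.23 and 0.12, and both have widths of atorvastatin libraries. The locus inside Cyp3a11 held 32.7, 28.0, 0 and 95.0 CPM in control and 15.3 to 29.6 in PCN (-0.77 ± 0.83), with the width of control 4.

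Other loci near drug metabolism genes were mixed. Of 16 tested within 50 kb of Alas1, 8 lay above 0 with 8 libraries and 11 without control 3, when 5 were at an unadjusted p under 0.05. Those of smallest p, 24506 and 25609 bases from Alas1, had 0.99 ± 0.37 and 0.97 ± 0.37 without control 3, both with the width of atorvastatin 3. Their nearest protein-coding gene was Poc1a, at 6983 and 5880 bases. A locus 1318 bases from G6pc (chr11:101379055-101379317) was at 76.4, 129, 84.2 and 104 CPM in control and 129, 215, 193 and 229 in PCN (0.94 ± 0.28), with the width of control 3. A locus inside the gene Rhbdd2, 29519 bases from Por, was lower in every PCN library. It was at 42.5 to 95.0 CPM in control and 26.7 to 28.5 in PCN (-1.35 ± 0.47), with the width of control 4. Over the 131 loci tested within 50 kb of the 26 genes 94 lay above 0 (median 0.26, against 0.14 for all loci) and 5 were at an unadjusted p under 0.05, against 2.17% of all loci. Without control 3 it was 99 of 161 (median 0.14, against 0.00), with 22 at an unadjusted p under 0.05, against 7.36% of all loci. Of these 161, 8 were separate with PCN higher and 6 with PCN lower, against 4.47% and 4.65% of all loci without control 3.

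In a direct fit of PCN against atorvastatin, which shares the PCN libraries, 0 of 41596 promoters passed (percent called 0 by edgeR). Hamp was at 35.1, 84.0, 49.4 and 89.5 CPM in the atorvastatin libraries, a range that spans the PCN values, and PCN minus atorvastatin was -0.15 ± 0.28 on the log2 scale. Mir6978, at 46.0 to 78.4 CPM with atorvastatin, was at -0.41 ± 0.26 and Cyp3a11, at 16.3 to 38.8 CPM, at 0.01 ± 0.29.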

How the data were processed

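Expected counts per promoter and per enhancer region, in steps of 0.5 and not normalised, were deposited by the authors. Per the submitters' processing notes the tools were HOMER 4.10, bedtools 2.30.0, STAR 2.7.9a and Trimmomatic, on mm10, with no roles given. The promoter and enhancer definitions and the counting tool are not given in the sources used here. Of 43511 promoter rows, 13038 repeat the counts of an earlier row.

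Counts were rounded to whole numbers and fitted in R 4.3.3 with edgeR 4.0.16 (TMM, robust quasi-likelihood test, filterByExpr at counts of 10 per library and 15 in total), group as the only factor, with Benjamini-Hochberg adjustment over all promoters or all loci and a threshold of 0.05. Standard errors were derived from F (the log2 fold change's size divided by F's square root). The 406518 enhancer regions were merged where they overlapped by at least 1 base (GenomicRanges 1.54.1). Locus and gene coordinates are those of the files and of RefSeq (GRCm38.p6). Of the promoter rows, 42203 matched RefSeq by accession, and 314 of 316 list genes were present.

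Named were the 10 promoters and 6 loci of smallest p per direction, up to 10 promoters per direction called without control 3 or with the replicate block, 26 preset genes and up to 3 members per list, each at its most open promoter. C3, Hamp2 and loci of smallest p without control 3 were chosen after values were seen. The members, lists and tests were chosen with earlier results of these data known. Alternatives were other scalings, filters and tools (DESeq2 1.42.0, limma 3.58.1), a replicate block and leaving out each library. The fits were tested on simulated data. The count columns not used number 0.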

Additional observations from a re-analysis of the deposited data

Results flagged for a closer look

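In groups of 4 libraries, a single library lay far from the other 3 in 7 of 132 groups examined, by the gap to its neighbour over the whole range, and chance gives about 1 in 20. In 6 of the 7 the library was control 3. It was far above the other controls at the promoters of 8030423F21Rik (28.7 CPM), Garnl3 (36.5 CPM) and Thbs2 (37.9 CPM), and at the loci in Zhx3 (124 CPM) and near Coq2 (224.5 CPM). It was far below them at the locus near Hnrnpll (66.0 CPM). The other was PCN 1, which lay above the other PCN libraries at the Mag promoter (5.35 CPM). The signs of the differences between groups at these promoters and loci were the same without control 3.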

How the results depend on the processing

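With 8 libraries every scaling, filter and tool tried called 0 promoters except limma-voom with sample weights, which called 125 (93 higher, 32 lower), and leaving out 1 library gave 0 to 7, the 7 without control 3. Without control 3, in settings chosen after seeing the data, loess offsets, library totals, DESeq2 and a minimum count of 30 called 2 promoters each, limma-voom and 1 promoter per set of identical counts 8 each, a threshold of 0.1 called 17, and leaving out control 4 as well called 66 (50 higher, 16 lower). Leaving out a further library gave 6 (control 1), 4 (control 2), 3 (PCN 1), 6 (PCN 2), 3 (PCN 3) and 8 (PCN 4). For loci, 2 were called by limma-voom with sample weights and, without control 3, 3 with loess offsets, 4 by DESeq2, 2 by limma-voom, 3 with a minimum count of 30 and 3 without control 4 too. The median of all promoters was -0.11 with library totals and, without control 3, -0.13 with library totals and -0.0698 by limma-voom. The cause of these differences was not tested, and the low depth of controls 3 and 4 limits what weakly open promoters and loci can show.

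Same-numbered libraries deviated together at numbers 1 and 4 but not at 2 and 3 (correlations 0.49, -0.05, -0.05 and 0.23 over promoters, and 0.14, 0.03, 0.00 and 0.11 over loci). Since not every pair did, the numbers were not taken to pair the samples. Libraries of different number also correlated over promoters, control 4 with PCN 3 at 0.27 and with PCN 1 at -0.45, and control 1 with PCN 3 at -0.29. The replicate block called 0 promoters and 0 loci with 8 libraries, and without control 3 it called 32 promoters, all higher, of 19 genes, among them Cfb, Cish, Slc25a25, Dsc2, Mir3968, Apon and Fbp1, and 0 loci. With this block and without control 3, log2 fold changes opposite in sign to those with 8 libraries were Cyp3a25 -0.0185, Cyp2c55 -0.0347, Gsta1 -0.0120, Nr1i2 0.0342 and Abcc3 0.0530, and with the block in 8 libraries Hamp2 was 0.00338.

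Other sign changes touched promoters within their error of 0. Cyp2c29 was -0.0243 with DESeq2 size factors, -0.0986 with library totals, -0.0813 with a minimum count of 30, -0.0125 by DESeq2 and -0.00687 with 12 libraries. With loess offsets Nr1i3 was -0.0184, Cd36 0.183 and Hamp2 0.235. Cd36 was 0.0121 by limma-voom, Ccnd1 0.00364 with sample weights, and Slco1a4 -0.0578 with library totals and -0.0273 with a minimum count of 30. Leaving out 1 library gave ranges of -0.152 to 0.207 for Cyp2c29, -0.144 to 0.410 for Cyp2c55, -0.535 to 0.171 for Nr1i2, -0.131 to 0.0289 for Abcc3, -0.334 to 0.271 for Cd36 and -0.270 to 0.139 for Hamp2.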
